A study of Trichoderma reesei with 9 samples.

Results

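The genes cel3a, cel1a and TRIREDRAFT_47268 of the filamentous fungus Trichoderma reesei were followed across 9 RNA-seq libraries of mycelium. They were taken by gene name from a deposited table of 10348 genes, and all 3 passed the filter on low counts, as did 8906 genes in all. The libraries came from a vps21 deletion strain of Rut-C30 (Δvps21, 3 libraries), a vps13 deletion strain of Rut-C30 (Δvps13, 3 libraries) and the parent Rut-C30, which the labels call wild type (3 libraries). All cultures had grown for 96 h with Avicel, a microcrystalline cellulose, as inducer, and the labels name no other treatment. Every strain therefore carries the Rut-C30 background, which is itself a cellulase-hyperproducing mutant with a truncated gene for the carbon catabolite repressor Cre1. The labels do not say whether each deletion strain was 1 clone, or whether replicates were separate cultures, so each p-value is set against the scatter of these libraries alone, and that scatter may be technical.

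Beta-glucosidases complete the breakdown of cellulose. Cellobiohydrolases and endoglucanases release cellobiose and short oligosaccharides, and beta-glucosidases split these to glucose, which relieves the product inhibition of the cellulases. In T. reesei most of the enzymes belong to glycoside hydrolase (GH) families 1 and 3. The product of cel3a (also known as bgl1) is the main secreted beta-glucosidase, whereas the product of cel1a (bgl2) is intracellular and has been linked to cellulase induction because beta-glucosidases can also transfer glucose to form inducing sugars. TRIREDRAFT_47268 is described in the deposited table only as a GH3 gene, and that family also holds enzymes with other substrates, such as beta-xylosidases.

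Library totals ran from 12127372 to 13493219 counts. The rab5-like gene TRIREDRAFT_123015, of the GTPase family to which Vps21 belongs, had 2 counts in each Δvps21 library, against 1365 to 1607 in the wild type. No vps13 gene could be matched in the table, so the label of Δvps13 was not checked in this way. The Δvps13 libraries differed most among themselves: the mean correlation of log2 CPM with the other libraries of the strain was 0.914 to 0.948 in Δvps13, against 0.982 to 0.985 in Δvps21 and 0.985 to 0.987 in the wild type. Replicate 3 of Δvps13 correlated more closely with the wild type (0.945) than with the other Δvps13 libraries (0.914). Results for cel3a, cel1a and TRIREDRAFT_47268 that turn on it are given with and without it. The Δvps13 values of neighbouring genes and of cellulase, sugar transporter and regulator genes are given only with it. RNA came from whole mycelium, so fewer cells of a kind and less RNA per cell cannot be told apart.

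The transcript of cel3a, the secreted beta-glucosidase, was higher in both deletion strains than in the parent. Its level in CPM, that is counts scaled by TMM to a common library size, was 376, 564 and 438 in Δvps21 replicates 1, 2 and 3, 152, 221 and 558 in Δvps13, and 119, 81.4 and 110.0 in the wild type. The lowest library of each deletion strain lay above the highest wild-type library, and Δvps13 replicate 3 lay among the Δvps21 libraries whereas the other Δvps13 libraries lay closer to the parent. In Δvps21 cel3a rose 4.45-fold, with 459 ± 95.8 CPM against 103 ± 19.4 CPM in the wild type (SD, n = 3 each; log2 2.15, SE 0.43, adjusted p = 0.00352, edgeR quasi-likelihood test with Benjamini-Hochberg adjustment over all tested genes). Leaving out any 1 library kept that call, at adjusted p from 9.48e-06 to 0.0237. In Δvps13 it rose 3-fold, with 310.2 ± 218 CPM against the same wild-type level (log2 1.59, SE 0.42, adjusted p = 0.0373). That call was close to the threshold of 0.05. It was lost without any 1 wild-type library (adjusted p = 0.0996, 0.154 and 0.107 without replicates 1, 2 and 3), without Δvps13 replicate 2 (0.0513) and without any 1 Δvps21 library (0.0531, 0.0559 and 0.0632), and in a fit of the 2 strains alone (0.0956). Without Δvps13 replicate 3 it was kept at a smaller size (log2 0.87, adjusted p = 0.0176).

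These calls stood on a wide background. In Δvps21 16.7% of the tested genes were called higher than in the wild type and 15.8% lower, 32.5% in all, and in Δvps13 5.65% were called higher and 4.75% lower, 10.4% in all. Genes whose 3 libraries all lay above the 3 wild-type libraries, as cel3a did, made up 30.2% in Δvps21 and 14% in Δvps13, and those lying wholly below made up 31.6% and 16%. With scaling by library totals only, the median log2 of all genes moved from -0.022 to -0.203 in Δvps21 and from 0.043 to -0.255 in Δvps13. The calls were then 872 up and 1678 down in Δvps21, where TMM gave 1489 and 1408, and 173 up and 1089 down in Δvps13, where TMM gave 503 and 423. Under that scaling cel3a kept its call in both, with log2 1.96 and 1.12.

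Between the deletion strains the cel3a difference was not called. The ratio of Δvps21 to Δvps13 was 1.48 (log2 0.57, SE 0.41, adjusted p = 0.389), with a 95% interval of the log2 ratio from -0.34 to 1.47, which spans no difference as well as a difference of more than 2-fold. It was called when Δvps13 replicate 3 was left out (log2 1.31, adjusted p = 0.00368). The order of strain means was thus Δvps21, Δvps13, wild type, and with all libraries the first pair did not differ beyond its spread.

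TRIREDRAFT_47268, the GH3 gene without an assigned substrate, differed most clearly between Δvps21 and the other strains. It had 140.2, 133 and 136 CPM in Δvps21, 48.8, 57.7 and 17.0 CPM in Δvps13, and 20.03, 23.3 and 20.9 CPM in the wild type. The Δvps21 libraries lay within a narrow range above all others, and those of Δvps13 fell into a pair above the wild type and 1 library, replicate 3, below it. In Δvps21 the gene rose 6.37-fold, with 137 ± 3.57 CPM against 21.4 ± 1.69 CPM in the wild type (SD, n = 3 each; log2 2.67, SE 0.36, adjusted p = 4.47e-04). Leaving out any 1 library gave log2 2.64 to 2.74 and adjusted p from 5.28e-08 to 0.00491. It was also 3.31-fold higher in Δvps21 than in Δvps13, where it had 41.2 ± 21.4 CPM (log2 1.73, SE 0.35, adjusted p = 0.00866, and 1.78e-04 to 0.0372 without any 1 library). In that comparison 7.68% of the tested genes were called higher and 7.55% lower, and the 3 Δvps21 libraries lay wholly above those of Δvps13 for 16.2% of genes and wholly below for 14.8%.

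In Δvps13 against the wild type TRIREDRAFT_47268 was not called (ratio 1.93, log2 0.95, SE 0.35, adjusted p = 0.102), with a 95% interval of the log2 ratio from 0.19 to 1.71. The value turned on replicate 3, which had 144 counts where replicates 1 and 2 had 766 and 654. Without that library the log2 was 1.33 and the difference was called (adjusted p = 1.65e-04). The share of all tested genes called in Δvps13 then also moved, from 10.4% to 35.8%.

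The intracellular beta-glucosidase gene cel1a showed no called difference between any of the strains. Its level was 3519, 3957 and 3546 CPM in Δvps21, 1777, 3683 and 5358 CPM in Δvps13, and 3611, 3098 and 2778 CPM in the wild type. The libraries of all strains overlapped, and those of Δvps13 included both the lowest and the highest of the 9. The mean was 3674 ± 246 CPM in Δvps21, 3606 ± 1792 CPM in Δvps13 and 3162 ± 420.1 CPM in the wild type (SD, n = 3 each). The log2 ratio was 0.22 in Δvps21 over the wild type (SE 0.38, 95% interval -0.61 to 1.04, adjusted p = 0.692), 0.19 in Δvps13 over the wild type (SE 0.38, -0.63 to 1.01, adjusted p = 0.77) and 0.03 in Δvps21 over Δvps13 (SE 0.37, -0.80 to 0.85, adjusted p = 0.971). The intervals are wide, and a call that misses the threshold does not show that the strains have equal levels. The sign in Δvps13 was not stable, with log2 -0.20 without replicate 3 and -0.26 under scaling by library totals. The comparisons with the parent share the same wild-type libraries, so the values of the 2 deletion strains are given side by side and not set against each other.

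**Figure D1:**
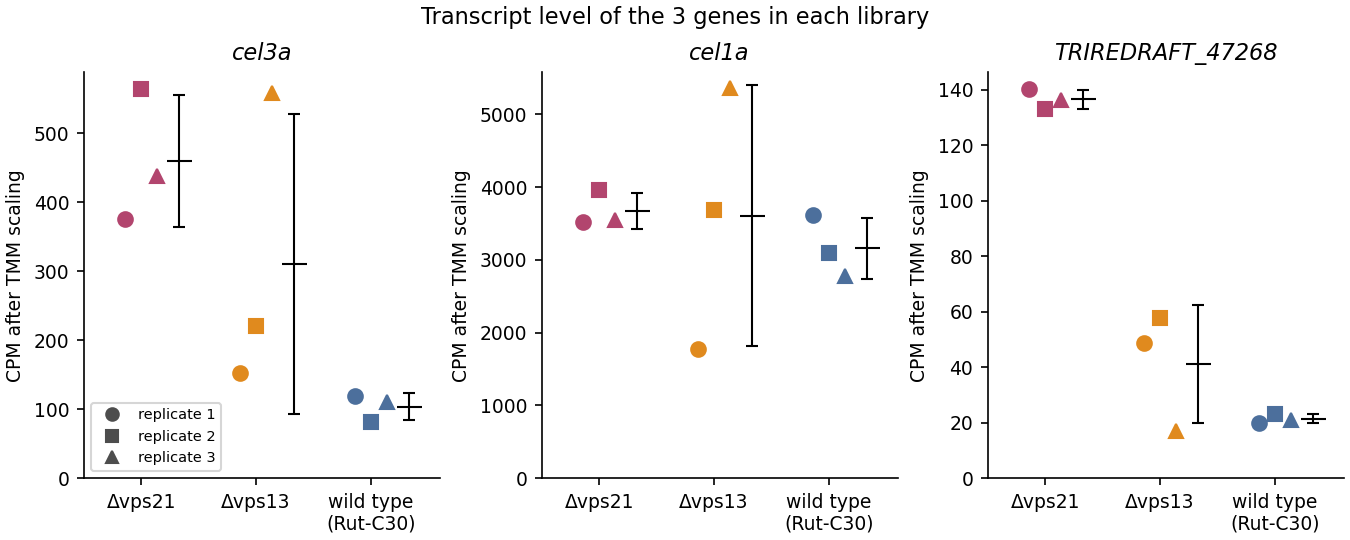
Transcript level of cel3a, cel1a and TRIREDRAFT_47268 in each library, in CPM after TMM scaling on a linear axis from 0 (coloured symbols: single libraries by replicate number; black bars: mean ± SD of 3 libraries per strain). Δvps13 replicate 3 holds 558 CPM of cel3a, near the top of the Δvps21 range, and 17.0 CPM of TRIREDRAFT_47268, below every wild-type library.

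Levels per transcript length showed how unequal the 3 genes were. In the authors' deposited FPKM, which divide a gene's count by its length and by the size of the library, cel1a had 1835 to 2055 in Δvps21, 932 to 2774 in Δvps13 and 1456 to 1839 in the wild type. It ranked between 48 and 84 among the 10348 genes in every library. The FPKM of cel3a was 151 to 225 in Δvps21, 61.2 to 222 in Δvps13 and 32.4 to 46.4 in the wild type. Its rank was 544 to 718 in Δvps21, 674 to 1541 in Δvps13 and 1879 to 2502 in the wild type. TRIREDRAFT_47268 had 50.1 to 53.0 FPKM in Δvps21, 6.37 to 22.1 in Δvps13 and 7.39 to 8.73 in the wild type. In all 9 libraries the order per length was cel1a, cel3a, TRIREDRAFT_47268.

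The distance between cel1a and cel3a was shorter in both deletion strains. The FPKM of cel1a was 12.2, 9.12 and 10.5 times that of cel3a in Δvps21, 15.2, 21.7 and 12.5 times in Δvps13, and 39.6, 49.5 and 32.8 times in the wild type. The ranges of each deletion strain and the wild type did not overlap, in Δvps13 also with replicate 3 included. That gap includes the rise of cel3a itself, and the share of all genes with such a gap was not taken. The ratio of cel1a to TRIREDRAFT_47268 was 34.6, 41.1 and 35.9 in Δvps21, 50.2, 88.1 and 435 in Δvps13, and 249, 183 and 183 in the wild type. Here Δvps13 replicate 3 lay above every other library and the remaining Δvps13 libraries lay between the other strains. The ratio of cel3a to TRIREDRAFT_47268 was 2.85 to 4.50 in Δvps21 and 3.71 to 6.28 in the wild type, so that those strains overlapped although both genes were higher in Δvps21. In Δvps13 it was 3.30, 4.06 and 34.9, the last in replicate 3. These ratios are given as descriptions and were not tested.

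**Figure D2:**
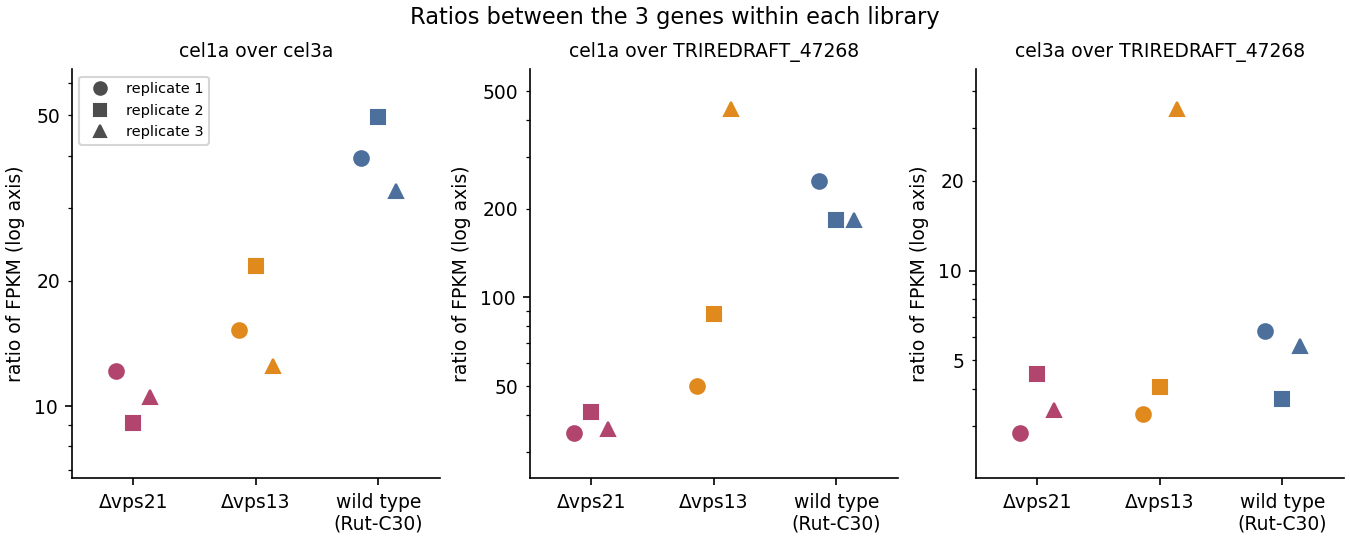
Ratio of deposited FPKM between each pair of the 3 genes within single libraries, on log axes (symbols: replicate numbers). The ratio of cel1a to cel3a is 9.12 to 12.2 in Δvps21, 12.5 to 21.7 in Δvps13 and 32.8 to 49.5 in the wild type, while Δvps13 replicate 3 stands apart in both ratios to TRIREDRAFT_47268.

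The 3 genes belong to a group of 14 genes described as GH1 or GH3, of which 13 were tested. TRIREDRAFT_58450, with at most 10 counts in a library, was not. Over the group, cel1a alone took 63.7 to 65.3% of the summed FPKM in Δvps21, 61.9 to 70.3% in Δvps13 and 63.9 to 71.1% in the wild type. The share of cel3a was 5.37 to 7.02% in Δvps21, 3.24 to 5.31% in Δvps13 and 1.34 to 1.95% in the wild type. That of TRIREDRAFT_47268 was 1.56 to 1.89% in Δvps21, 0.152 to 1.23% in Δvps13 and 0.286 to 0.361% in the wild type. By mean FPKM cel3a stood 4th of the 14 in both deletion strains and 7th in the wild type, and TRIREDRAFT_47268 stood 8th in Δvps21, 10th in Δvps13 and 10th in the wild type. In the wild type cel3a (41.0 ± 7.58 FPKM) did not differ beyond its spread from TRIREDRAFT_79669 (43.0 ± 0.849), the gene next above it.

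**Figure D3:**
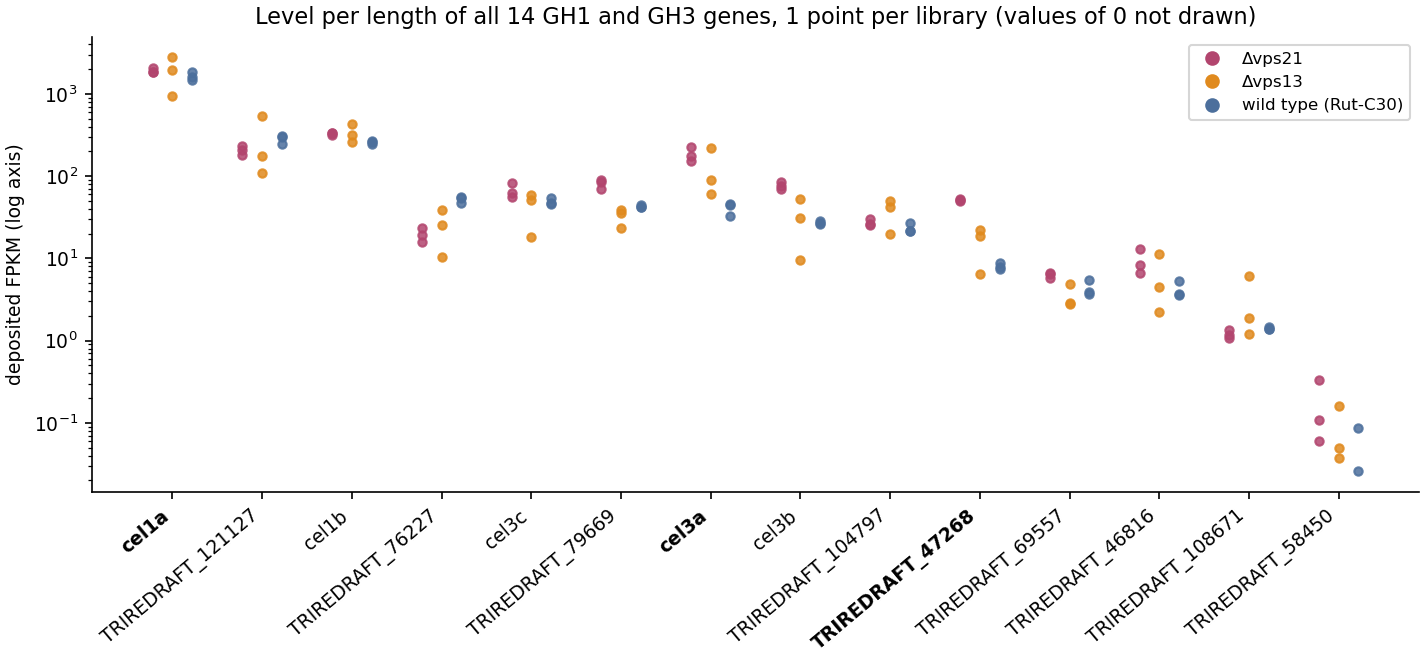
Deposited FPKM of all 14 GH1 and GH3 genes in each library on a log axis, ordered by wild-type mean (1 point per library, coloured by strain, values of 0 not drawn; names of cel3a, cel1a and TRIREDRAFT_47268 in bold). cel1a stands above the rest in every strain, and cel3a and TRIREDRAFT_47268 are the genes whose Δvps21 points lie farthest above the wild type.

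In Δvps21 5 of the 13 tested GH1 and GH3 genes were called against the wild type, 4 up and 1 down, or 38.5% against 32.5% of all tested genes. The median log2 of the list was 0.43, against -0.022 over all tested genes. Besides cel3a and TRIREDRAFT_47268 these were the GH3 genes TRIREDRAFT_79669, cel3b and TRIREDRAFT_76227. TRIREDRAFT_79669 had 269 ± 32.9 CPM in Δvps21 and 143 ± 1.54 CPM in the wild type (log2 0.91, adjusted p = 0.0102, and 0.113 under scaling by library totals). It was also higher in Δvps21 than in Δvps13, where it had 107 ± 26.9 CPM (log2 1.33, adjusted p = 0.00379). The level of cel3b was 211 ± 21.8 CPM in Δvps21 and 75.2 ± 2.48 CPM in the wild type (log2 1.49, adjusted p = 0.0235). That call was lost without any 1 wild-type library (adjusted p = 0.0778, 0.0718 and 0.0735 without replicates 1, 2 and 3), without any 1 Δvps21 library (0.051, 0.0645 and 0.0619) and under scaling by library totals (0.0668). TRIREDRAFT_76227 fell to 44.6 ± 8.90 CPM in Δvps21, against 120 ± 8.74 CPM in the wild type (log2 -1.43, adjusted p = 0.015, and 0.0662 and 0.0603 without Δvps21 replicates 1 and 3). The GH1 gene cel1b, whose product is intracellular like that of cel1a, had 478 ± 15.2 CPM in Δvps21 and 378 ± 5.97 CPM in the wild type and was not called (log2 0.34, adjusted p = 0.29).

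In Δvps13 cel3a was the only one of the 13 called against the wild type, 7.69% against 10.4% of all tested genes, with a median log2 of 0.19 against 0.043. Of the other 10 tested genes 0 were called by edgeR (1 higher and 1 lower at unadjusted p under 0.05) and 0 by DESeq2. The Δvps13 libraries of cel3b showed the same split as those of TRIREDRAFT_47268, at 84.8, 141 and 26.2 CPM, with replicate 3 lowest and below the wild-type range of 73.6 to 78.0 CPM. Without replicate 3, 5 of the 13 were called in Δvps13, 3 up and 2 down, or 38.5% against 35.8% of all genes in the same fit. Between Δvps21 and Δvps13 the genes called were TRIREDRAFT_47268 and TRIREDRAFT_79669, both higher in Δvps21, or 15.4% against 15.2% of all tested genes, with a median log2 of 0.57 against -0.054 over all. By DESeq2 5 of the 13 were called in that comparison, 4 up and 1 down, or 38.5% against 21.9% of all tested genes. Without Δvps13 replicate 1 the count was 6, 3 up and 3 down, or 46.2% against 20.7%, and without Δvps13 replicate 3 it was 5, all up, or 38.5% against 24.5%.

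**Figure D4:**
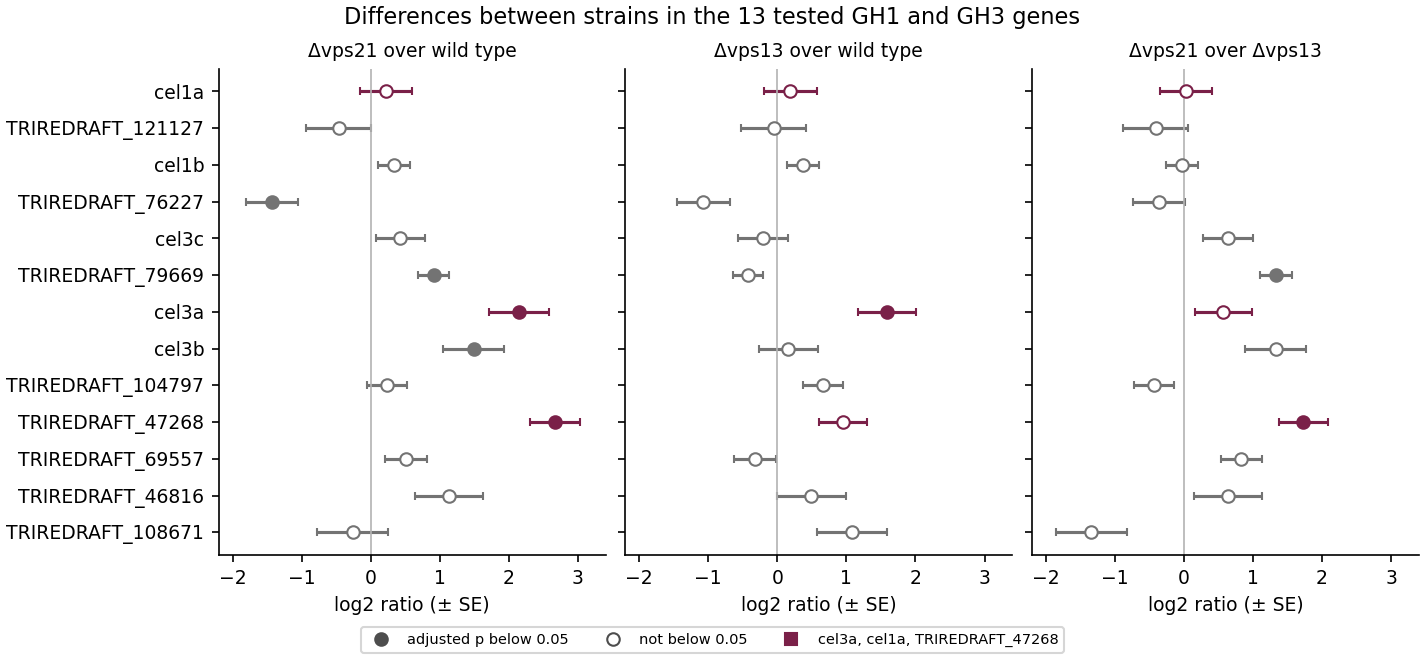
Log2 ratios ± SE from the edgeR fit for the 13 tested GH1 and GH3 genes, in Δvps21 over the wild type, Δvps13 over the wild type and Δvps21 over Δvps13 (filled: adjusted p below 0.05; dark red: cel3a, cel1a and TRIREDRAFT_47268; genes ordered by wild-type FPKM). TRIREDRAFT_47268 (2.67) and cel3a (2.15) hold the highest ratios in Δvps21, and cel1a lies near 0 in every panel.

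Genes next to the 3 differed in whether and in which direction they were called. cel3a lies on the plus strand of scaffold NW_006711153.1 from 104478 to 107104, and the next gene upstream, 955 bases away on the same strand, is the GH3 gene TRIREDRAFT_121127 (100991 to 103522). This neighbour was among the most abundant of the family and was not called in either deletion strain. It had 460, 593 and 528 CPM in Δvps21, 275, 442 and 1388 CPM in Δvps13 and 641, 779 and 755 CPM in the wild type. The log2 ratio to the wild type was -0.46 in Δvps21 (adjusted p = 0.487) and -0.05 in Δvps13 (adjusted p = 0.955). In the wild type TRIREDRAFT_121127 thus exceeded cel3a several-fold in FPKM, at 284 ± 31.9 against 41.0 ± 7.58, while in Δvps21 they had 208 ± 25.8 and 184 ± 37.7, which overlap within their spread. On the other side of cel3a, TRIREDRAFT_59402, described as a predicted protein, fell in Δvps21 (log2 -1.62, adjusted p = 0.0129, and 0.0578 without Δvps21 replicate 1).

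cel1a lies on the minus strand of NW_006711151.1 from 1147243 to 1149231. Its nearest neighbours, both described as predicted proteins, are TRIREDRAFT_46128, 154 bases away and at most 82 counts in a library, which fell in Δvps21 (log2 -2.63, adjusted p = 0.00189), and TRIREDRAFT_120751, which was not called (log2 0.61, adjusted p = 0.237). TRIREDRAFT_47268 lies on the minus strand of NW_006711154.1 from 548989 to 551995. On its upstream side, 3992 bases away, is TRIREDRAFT_106405, described as an extracellular lipase-like protein. This neighbour rose at a low level, to 4.75 CPM in Δvps21, against 0.547 CPM in the wild type (log2 3.09, adjusted p = 5.37e-04). In Δvps13 it had 2.05 CPM and was also called (log2 1.9, adjusted p = 0.0224). That call was lost without any 1 wild-type library (0.06, 0.107 and 0.0813). The gene on the other side of TRIREDRAFT_47268, TRIREDRAFT_73231, had 20.97 CPM in Δvps21 and 20.96 CPM in the wild type (adjusted p = 0.999). None of the other neighbours of the 3 genes was called in Δvps13 (adjusted p from 0.0765 to 0.955). No other gene model of the table overlapped any of the 3 genes. Positions are those of the deposited table.

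Relative to the cellobiohydrolase gene cel7a, cel3a and cel1a moved differently. The FPKM of cel3a was 0.718 to 0.881% of that of the cellobiohydrolase gene cel7a in Δvps21, 0.489 to 0.871% in Δvps13 and 0.635 to 0.963% in the wild type, and the strains overlapped. The FPKM of cel1a was 7.67 to 8.73% of that of cel7a in Δvps21, 7.44 to 12.3% in Δvps13 and 23.2 to 38.1% in the wild type, and neither deletion strain overlapped with the wild type. That gap includes the rise of cel7a itself, which was called 4.34-fold higher in Δvps21 and 3.29-fold higher in Δvps13, whereas cel1a was not called. Any gene with an unchanged level would show such a gap, and the share of genes that do was not taken. TRIREDRAFT_47268 was at 0.196 to 0.252% of cel7a in Δvps21, 0.0250 to 0.148% in Δvps13 and 0.127 to 0.171% in the wild type, with Δvps21 above the others. Another abundant cellulase gene, the GH6 gene TRIREDRAFT_72567, had log2 ratios to the wild type of 2.76 in Δvps21 and 2.40 in Δvps13. Those of cel7a were 2.12 and 1.72, and those of cel3a were 2.15 and 1.59. FPKM ratios to the GH6 gene were not taken, so the overlap of the strains is stated for cel7a only.

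Of 13 genes picked by names and descriptions of cellulases, all tested, 9 rose and 1 fell in Δvps21 and 6 rose and 2 fell in Δvps13, or 76.9% and 61.5% against 32.5% and 10.4% of all tested genes. Their median log2 was 1.81 and 1.26. The list was not trimmed and also holds TRIREDRAFT_39942, described as a beta-1,3-endoglucanase, which acts on another glucan and was not called (log2 -0.28 in Δvps21 and -0.22 in Δvps13). The genes that fell were the dehydrogenase gene TRIREDRAFT_123946, linked by its description to cellulase signalling, in both strains (log2 -3.15 and -2.25) and the GH12 gene TRIREDRAFT_77284 in Δvps13 (log2 -1.14). Of 11 genes picked by descriptions of sugar transporters, 4 rose and 1 fell in Δvps21 and 2 rose and 1 fell in Δvps13. These were 45.5% and 27.3%, against 32.5% and 10.4% of all tested genes. The median log2 of the 11 genes was 0.25 and 0.44, against -0.022 and 0.043 over all tested genes. They include genes described as galactose and maltose permeases, and whether any of them takes up products of cellulose was not tested. Among regulators of cellulase genes, the repressor gene cre1 was called higher in Δvps21, with 1603 ± 143 CPM against 778 ± 77.8 CPM in the wild type (log2 1.04, adjusted p = 0.0256). That call was lost without any 1 wild-type library (0.0648, 0.106 and 0.0685) and without any 1 Δvps21 library (0.0521, 0.0622 and 0.0863). The activator gene xyr1 had 1715, 2010 and 1774 CPM in Δvps21, 845, 1792 and 2586 CPM in Δvps13 and 876, 980.0 and 987 CPM in the wild type, and was called by edgeR in neither deletion strain (log2 0.95, adjusted p = 0.0628 in Δvps21; log2 0.88, adjusted p = 0.135 in Δvps13). DESeq2 called xyr1 in Δvps21 (adjusted p = 0.0191) and not in Δvps13 (adjusted p = 0.056).

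Across the 9 libraries each of the 3 genes kept different company. The genes whose log2 CPM followed cel3a most closely, out of 8905, were the endoglucanase genes cel5a (Pearson r = 0.991) and cel7b (r = 0.988), then TRIREDRAFT_34985 (r = 0.98), rho1 (r = 0.978) and the GH61 gene cel61a (r = 0.978). For cel5a, the CPM was 5979, 7721 and 7432 in Δvps21, 3525, 4815 and 8599 in Δvps13 and 2706, 2020 and 2359 in the wild type. Δvps13 replicate 3 was highest of its strain, as it was for cel3a. In Δvps21 cel5a, cel7b and cel61a had log2 ratios of 1.58, 2.40 and 2.21 to the wild type, against 2.15 for cel3a. The lowest correlations with cel3a were those of TRIREDRAFT_119764 (r = -0.972) and TRIREDRAFT_109523 (r = -0.968), both described as predicted proteins.

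TRIREDRAFT_47268 was followed most closely by ooc1 and TRIREDRAFT_79501 (r = 0.993 each), the class II hydrophobin gene TRIREDRAFT_106538 (r = 0.992), TRIREDRAFT_123955 (r = 0.99) and the GH81 gene TRIREDRAFT_79602 (r = 0.989). Hydrophobins are small surface proteins that coat aerial hyphae and spores. TRIREDRAFT_106538 had 1031, 1216 and 1027 CPM in Δvps21, 77.5, 230.3 and 4.37 CPM in Δvps13 and 7.01, 6.42 and 7.83 CPM in the wild type. Its libraries fell in the same pattern as those of TRIREDRAFT_47268, with Δvps13 replicate 3 below the wild type, over a wider range. The third described gene was a transmembrane amino acid transporter gene, TRIREDRAFT_121486 (r = 0.985). The lowest correlations, r = -0.986 and -0.985, were those of a pair of gene models without a name or description.

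The closest to cel1a were low genes, TRIREDRAFT_75380 (r = 0.978), a pair of gene models without a description (r = 0.97 and 0.959), TRIREDRAFT_112590 (r = 0.946) and TRIREDRAFT_58753 (r = 0.938), with mean levels from 0.446 to 10.3 CPM. Among described genes they were the GH67 gene TRIREDRAFT_72526 (r = 0.937), the GH2 gene TRIREDRAFT_77299 (r = 0.932) and a Ras-GTPase gene, TRIREDRAFT_5209 (r = 0.929). At the other end were TRIREDRAFT_70560 (r = -0.975) and TRIREDRAFT_21324 (r = -0.961). Among themselves, cel3a correlated with cel1a at r = 0.59 and with TRIREDRAFT_47268 at r = 0.58, and cel1a and TRIREDRAFT_47268 at r = -0.02. Within the family, TRIREDRAFT_47268 was nearest to cel3b (r = 0.90), cel3a to cel1b (r = 0.87) and cel1a to TRIREDRAFT_46816 (r = 0.85). These are descriptions over 9 libraries of 3 strains, which share strains and, in Δvps13, replicate 3.

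**Figure D5:**
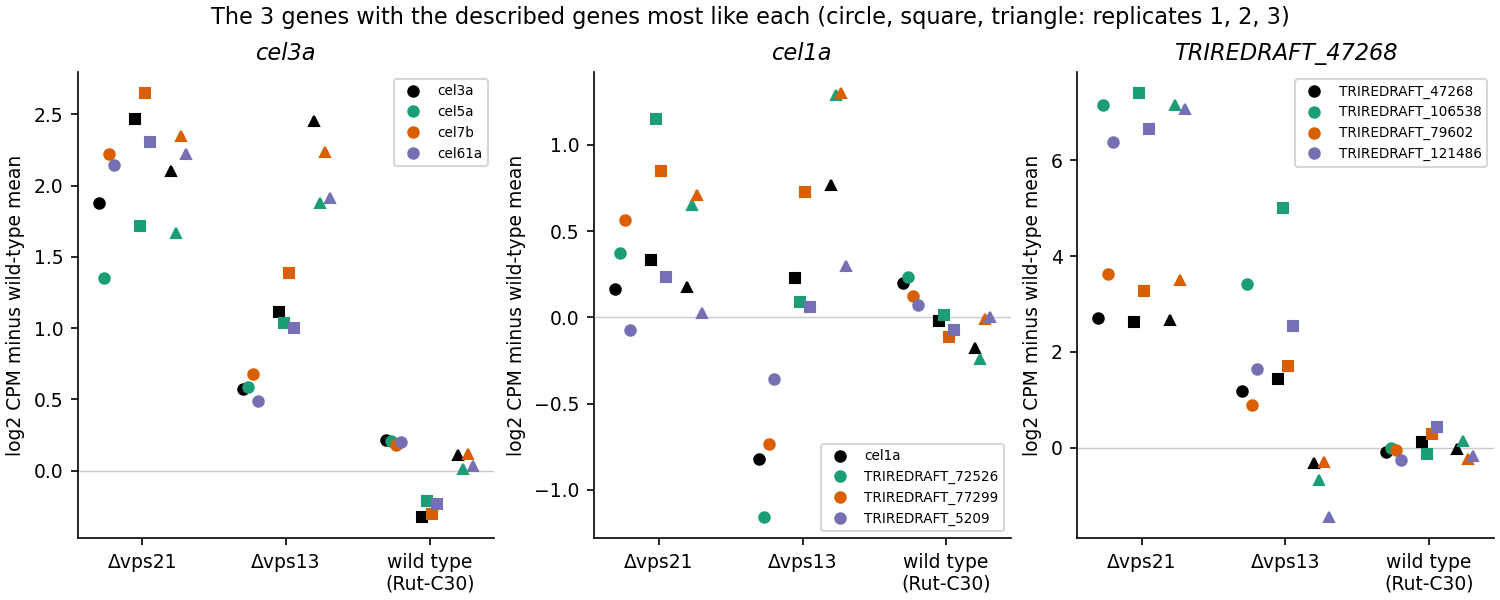
Log2 CPM minus the wild-type mean in each library for cel3a, cel1a and TRIREDRAFT_47268 (black), each with the 3 described genes of highest Pearson r (colours; circle, square and triangle: replicates 1, 2 and 3). In Δvps13 replicate 3 the cel3a group lies near its Δvps21 level, the cel1a group above the wild type, and the TRIREDRAFT_47268 group below it.

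Hydrophobin genes, picked by their names and descriptions, are given beside TRIREDRAFT_47268. Whether they mark aerial growth or spores in these cultures was not tested. The summed level of the 4 listed genes (hfb1, hfb2, hfb3 and TRIREDRAFT_106538) was 8969 to 13345 CPM in Δvps21, 1961 to 10820.1 CPM in Δvps13, with replicate 3 lowest, and 3571 to 4400.2 CPM in the wild type. The largest part of that sum was hfb2, with 6104, 9223 and 7182 CPM in Δvps21 and 3379, 2631 and 2653 CPM in the wild type. hfb1 was at 0 counts in 7 of the 9 libraries and had at most 4 counts. Of the 3 tested, TRIREDRAFT_106538 rose in Δvps21 (adjusted p = 7.72e-04) and hfb2 and hfb3 were not called there (adjusted p = 0.0632 and 0.0682), so that 33.3% were called, against 32.5% of all tested genes. DESeq2 called all 3 in Δvps21, where it called 38.2% of all tested genes. In Δvps13 TRIREDRAFT_106538 was also called by edgeR (log2 3.88, adjusted p = 0.0259), again 33.3% of the 3 tested, against 10.4% of all tested genes, although its libraries overlapped with the wild type. That call was lost without any 1 wild-type library (adjusted p = 0.104, 0.115 and 0.0947) and without Δvps13 replicate 2 (0.0886). It was kept without Δvps13 replicate 3 (log2 4.45, adjusted p = 7.23e-06), a fit in which 35.8% of all tested genes were called. The part of the hydrophobin genes in the differences of TRIREDRAFT_47268 was not tested.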

How the data were processed

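Poly-A RNA of T. reesei mycelium was sequenced in 9 libraries, 3 per strain, grouped by the strain in the labels. The deposited counts are whole-number read counts per gene, made with HISAT2 2.0.5 and featureCounts 1.5.0-p3 per the submitters' processing notes. The sources used here name neither a genome build nor an annotation. The FPKM values were deposited by the authors and equal each count over the gene's length and over a library factor of 0.704 to 1.22 times the total, so they are not independent of the counts. Gene lengths are in a deposited column of another kind. No strand-marking step is named, so reads of antisense genes cannot be separated. Reads of near-identical genes were not separated here either.

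Low genes were removed with filterByExpr (minimum count 10). Counts were scaled by TMM (factors 0.699 to 1.21) and fitted by edgeR 4.0.16 quasi-likelihood (R 4.3.3) with 1 mean per strain over all 9 libraries (6 residual degrees of freedom). Benjamini-Hochberg adjustment ran over 8906 genes, with calls at an adjusted p below 0.05. Intervals are 95% intervals of the fitted log2 ratio. The fit was also run on counts simulated with its own estimates of spread. Such a run cannot show how the fit handles libraries as unlike as those of Δvps13. Replicate libraries differed by far more than counting noise (chi-square per degree of freedom 13.7 to 351), so none was counted as a duplicate.

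The 3 genes and the gene lists, which are patterns in names and descriptions, were chosen with earlier results of these data known. Genes named besides the 3 are the most abundant and the called GH1 and GH3 genes, the nearest annotated neighbours, the regulators xyr1 and cre1, and those with the highest and lowest Pearson r of log2 CPM (prior count 2). The cellulase genes cel7a and TRIREDRAFT_72567 and the rab5-like gene TRIREDRAFT_123015 are named too. TRIREDRAFT_123946, TRIREDRAFT_77284, TRIREDRAFT_39942 and TRIREDRAFT_46816 were named after their values were seen. Alternatives were DESeq2 1.42.0, median-ratio size factors, library totals, no filter, the 2 strains alone, a replicate block, limma 3.58.1 with a trend on log2(FPKM + 1) and log2(FPKM + 0.1) (minimum FPKM 1, in at least 3 libraries), and leaving out each library. Of the NCBI gene identifiers in the table, 9116 of 9120 matched RefSeq's gene table for assembly QM6a v2.0, those of the 3 genes among them. No sequence is shown.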

Additional observations from a re-analysis of the deposited data

Results flagged for a closer look

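The effect of the deletions on TRIREDRAFT_47268 differed between the strains by the test of the difference itself: Δvps21 over Δvps13 gave log2 1.73 (adjusted p = 0.00866, edgeR quasi-likelihood test), with all 3 Δvps21 libraries above all 3 Δvps13 libraries. Of all tested genes, 16.2% lay wholly higher in this comparison and 14.8% wholly lower. Groups of 3 libraries are too small for a test of single outlying libraries, so Δvps13 replicate 3 was not assessed that way.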

How the results depend on the processing

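The call of TRIREDRAFT_47268 in Δvps21 against the wild type and against Δvps13, and that of cel3a in Δvps21 against the wild type, kept direction and side of the threshold under all 17 alternatives run. The cel3a call in Δvps13 (log2 1.59) was lost in 11 of the 17: with the 2 strains alone (1.59), with a replicate block (1.42, adjusted p = 0.0542), by limma on log2(FPKM + 1) (1.38, adjusted p = 0.0501) and log2(FPKM + 0.1) (1.40, adjusted p = 0.0538) and in 7 of the 9 fits without 1 library, which ranged from 0.87 to 1.93. Without 1 library, TRIREDRAFT_47268 in Δvps13 ranged from 0.63 to 1.33, cel3a in Δvps21 over Δvps13 from 0.24 to 1.31, cel1a in Δvps13 from -0.20 to 0.54 and cel1a in Δvps21 over Δvps13 from -0.30 to 0.43 (-0.30 without Δvps13 replicate 1 and -0.03 without Δvps21 replicate 2). By library totals cel1a in Δvps13 was at -0.26.

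GH1 and GH3 calls in Δvps13, 1 with all libraries, were 2 by library totals (1 up, 1 down; 15.4% against 14.2% of all genes in the same fit), 0 with the 2 strains alone (3 at unadjusted p under 0.05; 3.42% of all genes), 0 by limma on log2(FPKM + 1) and log2(FPKM + 0.1) (2 at unadjusted p under 0.05 in each; 10.4% and 9.53% of all genes) and 0 to 5 without 1 library; DESeq2 gave 1 (7.69% against 18.2%). In Δvps21 they were 5, or 3 by library totals (23.1% against 28.6%), 9 with the 2 strains alone (69.2% against 55.4%) and 3 to 6 without 1 library. In Δvps21 over Δvps13 they were 2, or 5 by DESeq2 (38.5% against 21.9%) and 2 to 6 without 1 library. Over the fits without 1 library, 0 to 38.5% of the tested GH1 and GH3 genes were called in Δvps13, against 1.83 to 35.8% of all genes. The shares in Δvps21 were 23.1 to 46.2%, against 18.9 to 46.9%. Those in Δvps21 over Δvps13 were 15.4 to 46.2%, against 5.7 to 24.5%. Genes called in Δvps13 were 926, or 1620 by DESeq2, 298 with the 2 strains alone and 165 to 3233 without 1 library. In Δvps21 they were 2897, or 4889 with the 2 strains alone and 1705 to 4236 without 1 library. In Δvps21 over Δvps13 they were 1356, or 612 with the 2 strains alone and 514 to 2216 without 1 library; by library totals the split was 691 up and 395 down, where TMM gave 684 and 672. The cause of these shifts was not tested.

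Strains share only replicate numbers. Deviations of same-numbered libraries correlated at -0.0981 to 0.47, not every library correlated best with its own number, and the replicate block gave 807, 2879 and 1289 called genes in Δvps13, Δvps21 and Δvps21 over Δvps13. Among the 3 genes it changed only the cel3a call in Δvps13. With the block 1 GH1 or GH3 gene was still called in Δvps13, but lower than the wild type (7.69% against 9.06% of all genes).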
